A study of Rattus norvegicus with 12 samples.

Results

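The genes followed here are hepatocyte growth factor, its receptor and 3 genes that act beside them, Hgf, Met, Gab1, Spint1 and Spint2. They were taken by symbol, 5 of the 33294 gene symbols in the count table, and the set was put together because Hgf is lower in each of 3 knockdowns. Poly(A)-selected RNA-seq was carried out in PAC1 cells, a rat pulmonary artery smooth muscle line, in 4 groups of 3 libraries. The study describes the cells of these knockdowns as kept under conditions that promote a differentiated state. Per the labels, cells were reverse transfected with 90 pmol of siRNA, transfected again with the same siRNA after 24 h and assessed 48 h later, whereas the study's methods describe longer intervals. The control group received the siRNA C2, which the study describes as a scrambled sequence, and the other groups received an siRNA against RBPMS, RBFOX2 or QKI (gene symbol Qk). These targets are RNA-binding proteins that regulate splicing, and all 4 groups share the line, the culture conditions and the transfection reagent. The study's sheet lists a single siRNA sequence for each of these groups, so effects of an siRNA on its target and on other transcripts cannot be told apart. Nothing in the labels says that the libraries of a group came from separate cultures, so p-values measure the spread between these libraries, although the methods speak of biological replicates.

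HGF is a growth factor that mesenchymal cells, including fibroblasts and smooth muscle cells, secrete as an inactive single chain. Serine proteases cleave it into the active form, and the membrane-bound Kunitz-type inhibitors SPINT1 (also called HAI-1) and SPINT2 (HAI-2) restrain those proteases. Active HGF binds the receptor tyrosine kinase MET, mostly on epithelial and endothelial cells, and GAB1 is the large docking protein that carries the signal of activated MET to SHP2, PI3-kinase and other effectors. The pathway is known for driving cell scattering, motility and growth.

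The siRNA sense strands are shown because each group is defined by one of them. They are in lower case throughout, with no part marked, and were copied from the study's oligonucleotide list.
C2: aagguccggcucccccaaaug
RBPMS: ggcggcaaagccgagaaggcgaaca
RBFOX2: gcaaugguucagccuuuua
QKI: ggacuuacagcuaaacaac

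Library totals lay between 110595399 and 151665474 counts, and levels are given as CPM (counts per M of the library total after TMM scaling). Each targeted gene was lower in its own knockdown, where Rbpms was at 7.21 ± 0.301 CPM against 40.7 ± 2.60 CPM in control (SD, n = 3), Rbfox2 at 37.3 ± 0.943 against 154 ± 4.37 CPM and Qk at 26.6 ± 0.649 against 233 ± 7.04 CPM. Rbpms was also lower in RBFOX2 knockdown (log2 fold change −0.81, edgeR adjusted p 2.10e-09) and in QKI knockdown (−0.49, adjusted p 9.32e-07), and Qk in RBFOX2 knockdown (−0.42, adjusted p 1.70e-08). Qk was higher in RBPMS knockdown (0.18, adjusted p 2.97e-04), and Rbfox2 was slightly lower in RBPMS and QKI knockdown (−0.12 and −0.15, adjusted p 0.0193 and 0.00428). The former was not called without control 3 (adjusted p 0.0819), without RBPMS-KD 2 (0.0538) or with the 6 libraries alone (0.073), nor the latter with library totals (0.195). All 8 smooth muscle markers examined were detected, and their summed level ran from 2110 to 2175 CPM in control, while the RBPMS libraries gave 1069 to 1176 CPM, the RBFOX2 libraries 827 to 925 CPM and the QKI libraries 1441 to 1526 CPM. Most of that sum is Acta2, Tagln and Myl9, and Myh11 went the other way, with log2 fold changes of 0.34, 1.05 and 0.19 after depletion of RBPMS, RBFOX2 and QKI (highest adjusted p 0.0474), as did Myocd in RBPMS knockdown (0.16, adjusted p 0.0249) and QKI knockdown (0.78, adjusted p 2.01e-09). Smtn was higher in RBFOX2 knockdown (0.18, adjusted p 5.86e-04), and Tagln was not called in QKI knockdown (0.034, adjusted p 0.592). The summed level of 4 fibroblast markers, nearly all of it Col1a1, ran from 7337 to 8472 CPM in control and from 13943 to 17076 CPM over the knockdowns. The fibroblast markers Lum and Dcn fell in RBPMS knockdown (−1.26 and −1.48) and QKI knockdown (−1.43 and −2.25, highest adjusted p of these 1.86e-05). Pdgfra fell in QKI knockdown (−0.61, adjusted p 1.31e-04) and rose in RBFOX2 knockdown (0.41, adjusted p 0.003). There Lum fell (−0.53, adjusted p 0.00714) and Dcn was not called (−0.22, adjusted p 0.372). Summed epithelial markers, nearly all Krt8, gave 29.5 to 31.7 CPM in control and 72.0 to 73.9 CPM in RBFOX2 knockdown, with the other knockdowns at 32.3 to 44.2 CPM. Summed endothelial markers gave 8.73 to 10.8 CPM in control and 8.81 to 9.11 CPM in RBPMS knockdown. RBFOX2 and QKI knockdown gave 5.16 to 5.76 and 6.42 to 6.75 CPM. Of these markers Cdh5 fell after depletion of RBPMS, RBFOX2 and QKI (−0.28, −1.10 and −1.18, highest edgeR adjusted p 0.0356). Vwf fell in RBFOX2 knockdown (−0.69, adjusted p 0.00372) and was not called in the others. Tek rose in RBPMS and QKI knockdown (0.59 and 0.66, highest adjusted p 0.00947) and was not called in RBFOX2 knockdown. Pecam1, with at most 49 counts per library, rose in RBPMS and QKI knockdown (1.70 and 1.27). Summed leukocyte markers, nearly all Cd14, gave 37.5 to 39.2 CPM in control and 39.8 to 41.3 CPM in QKI knockdown. RBPMS and RBFOX2 knockdown gave 51.6 to 59.0 and 52.4 to 53.4 CPM. Cd68, at 1.04 CPM in control, rose in QKI knockdown (0.93, edgeR adjusted p 6.46e-06) and was not called in the other knockdowns. The leukocyte markers Ptprc and Adgre1 and the epithelial marker Krt18 were near 0 in all groups. The part of these shifts in the results below was not tested.

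Hgf, the ligand gene, was readily detected in control cells and scarce after each knockdown. Control 1, 2 and 3 held 27.0, 27.3 and 28.9 CPM. The RBPMS libraries held 4.62, 4.06 and 5.21 CPM and the RBFOX2 libraries 6.24, 5.92 and 4.86 CPM. The QKI libraries held 1.70, 1.86 and 1.63 CPM, which still rested on 202 to 235 counts per library. Every knockdown library was below every control library, the QKI libraries were below all others, and the RBPMS and RBFOX2 libraries overlapped.

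The mean of the control group was 27.7 ± 1.05 CPM (SD, n = 3). After depletion of RBPMS, RBFOX2 and QKI the means were 4.63 ± 0.578, 5.67 ± 0.720 and 1.73 ± 0.120 CPM. Fitted log2 fold changes against control were −2.59 (SE 0.091), −2.29 (SE 0.088) and −4.01 (SE 0.10), which is 6.01-fold, 4.89-fold and 16.1-fold lower. Hgf was chosen for these falls, so they are given as a description with no test, and all 3 rest on the same control libraries. In a bulk measurement, fewer cells that express Hgf and less Hgf RNA per cell cannot be told apart.

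**Figure D1:**
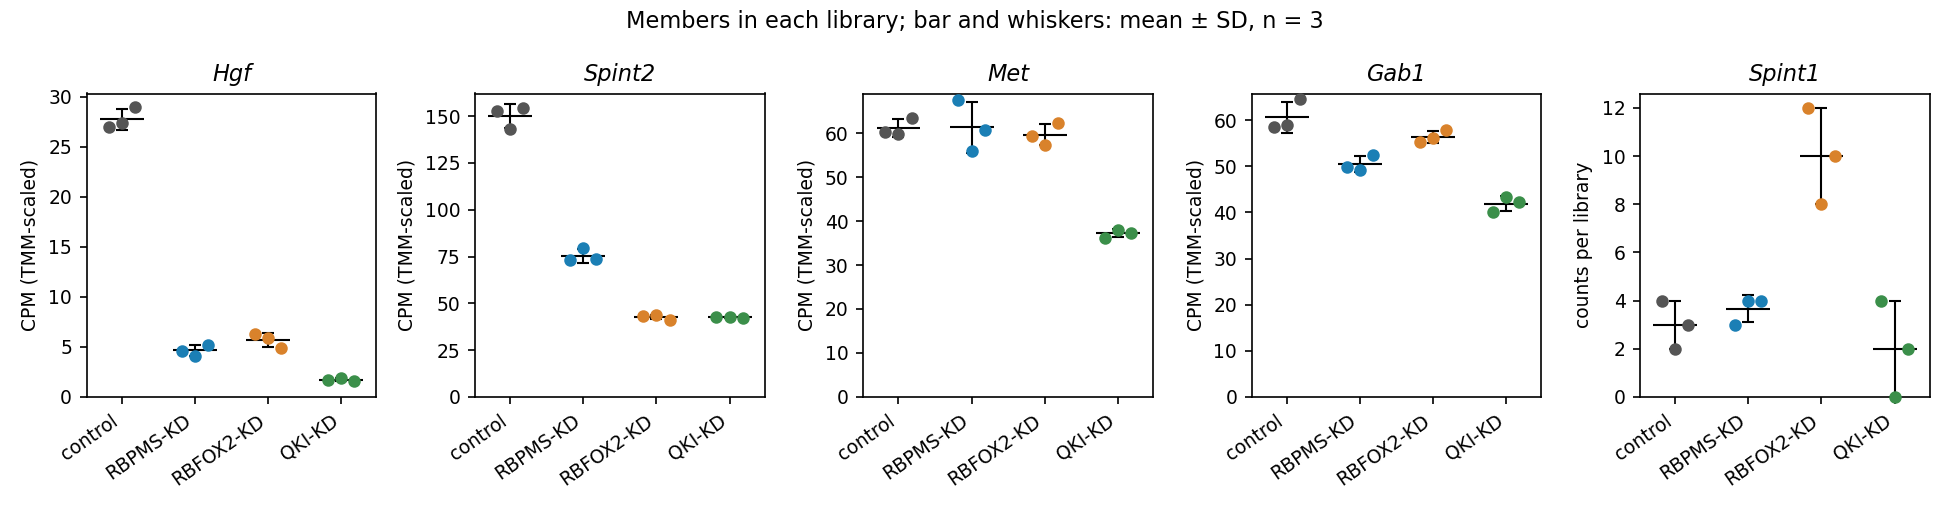
Level of each gene in the 12 libraries, on linear axes from 0, in CPM after TMM scaling for Hgf, Spint2, Met and Gab1 and in raw counts for Spint1, with 3 points per group and the mean and SD. Hgf and Spint2 were lower in all knockdown libraries than in all control libraries, Met was lowest in the QKI libraries, and Spint1 had at most 12 counts in any library.

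The contrasts between knockdowns compare no control library, although the scaling, the filter and the estimate of spread come from all 12 libraries. Hgf was chosen for its falls against control and not for a difference between knockdowns, so these contrasts were tested. The same knockdown libraries did enter that choice. QKI knockdown had less Hgf than RBPMS knockdown, with a log2 fold change of 1.42 for RBPMS against QKI (SE 0.11, 95% interval 1.19 to 1.65, edgeR quasi-likelihood adjusted p 4.69e-09). It also had less than RBFOX2 knockdown, with 1.72 for RBFOX2 against QKI (SE 0.11, interval 1.49 to 1.94, adjusted p 1.69e-10). An adjusted p under 0.05 was reached by 61% and 68.5% of all 18438 genes tested in these contrasts, and by 56.7% for RBPMS against RBFOX2 knockdown, so passing it is common here and the size of a difference says more.

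Hgf differed little between RBPMS and RBFOX2 knockdown, with a log2 fold change of −0.30 (SE 0.095, interval −0.50 to −0.098, edgeR adjusted p 0.0126). That call was lost without RBPMS-KD 2 (−0.21, adjusted p 0.0625), without RBFOX2-KD 1 (−0.22, adjusted p 0.0822), without RBFOX2-KD 2 (−0.26, adjusted p 0.0563) and in the authors' normalised table (−0.22, limma adjusted p 0.077). In order of level, Hgf ran from control through RBFOX2 and RBPMS knockdown to QKI knockdown, and of these steps the one between RBFOX2 and RBPMS knockdown was within the overlap of the libraries.

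The stretch before the annotated start of Hgf is shown because the levels of several factors that bind this promoter are reported further on, and that of Spint2 because this gene fell in the same knockdowns. Each is 250 bases long, 5′ to 3′ on the strand of the gene, from RefSeq on the build GRCr8, whereas the counts were made on mRatBN7.2. Hgf lies at chr4:19700468-19700717 on the minus strand and Spint2 at chr1:93708092-93708341 on the minus strand. Capitals mark AGGTCA or its reverse complement TGACCT, the core motif that nuclear receptors bind, and the GC box GGGCGG or CCGCCC, which SP1 and SP3 bind.
Hgf: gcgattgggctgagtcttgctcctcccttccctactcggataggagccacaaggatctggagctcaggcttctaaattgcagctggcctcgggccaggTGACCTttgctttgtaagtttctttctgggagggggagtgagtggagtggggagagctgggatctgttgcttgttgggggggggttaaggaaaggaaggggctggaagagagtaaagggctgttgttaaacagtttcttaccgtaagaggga
Spint2: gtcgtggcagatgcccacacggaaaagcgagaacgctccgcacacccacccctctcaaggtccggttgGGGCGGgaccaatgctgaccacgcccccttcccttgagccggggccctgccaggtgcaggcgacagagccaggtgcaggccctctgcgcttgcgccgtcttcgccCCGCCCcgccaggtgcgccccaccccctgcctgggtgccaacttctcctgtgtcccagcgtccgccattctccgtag

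The Hgf stretch held the nuclear receptor motif once, starting 152 bases before the start, and no GC box. The Spint2 stretch held 2 GC boxes, starting 182 and 77 bases before the start, and no nuclear receptor motif. Searched on both strands, the nuclear receptor motif was found in 14.1% and the GC box in 30.5% of 33469 such stretches. Neither gene had a TATAAA match, a sequence found in 12.9% of the stretches. Of the letters, 54% were G or C for Hgf and 69.6% for Spint2, against a median of 51.2%. A match is only a match of letters, and none of these libraries measured binding.

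Spint2, the gene for the membrane-bound inhibitor HAI-2, fell in all 3 knockdowns and was the only one of Spint2, Met and Gab1 whose fitted change passed the fold threshold in a comparison with control. Control 1, 2 and 3 held 153, 143 and 155 CPM, and the RBPMS libraries 72.9, 79.3 and 73.6 CPM. The RBFOX2 libraries held 43.1, 43.6 and 41.3 CPM, and the QKI libraries 42.7, 42.4 and 42.1 CPM. The control libraries stood highest, the RBPMS libraries lay between, and the RBFOX2 and QKI libraries lay together at the bottom.

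The means were 150 ± 6.28, 75.3 ± 3.51, 42.7 ± 1.22 and 42.4 ± 0.281 CPM in control and after depletion of RBPMS, RBFOX2 and QKI (SD, n = 3). Log2 fold changes against control were −0.99 (SE 0.041), −1.82 (SE 0.042) and −1.82 (SE 0.042), with edgeR adjusted p of 2.07e-12, 7.86e-16 and 4.00e-16. A fall past both an adjusted p of 0.05 and a log2 fold change of −1, the study's rule for a changed gene, was seen in 4.5%, 4.73% and 9.24% of all genes tested in the 3 comparisons. Spint2 met it in RBFOX2 and QKI knockdown, and in RBPMS knockdown it stood at the edge, at −1.04 with library totals only and −0.97 without RBPMS-KD 1.

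Between knockdowns, Spint2 was higher in RBPMS than in RBFOX2 knockdown by 0.82 on the log2 scale (SE 0.041, adjusted p 4.48e-11) and higher in RBPMS than in QKI knockdown by 0.83 (SE 0.041, adjusted p 1.68e-11). RBFOX2 and QKI knockdown gave no detectable difference, 0.0084 (SE 0.042, interval −0.080 to 0.096, adjusted p 0.873), with a sign that turned under several alternatives. The order of the knockdowns therefore was not that of Hgf, which was far lower in QKI than in RBFOX2 knockdown.

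**Figure D2:**
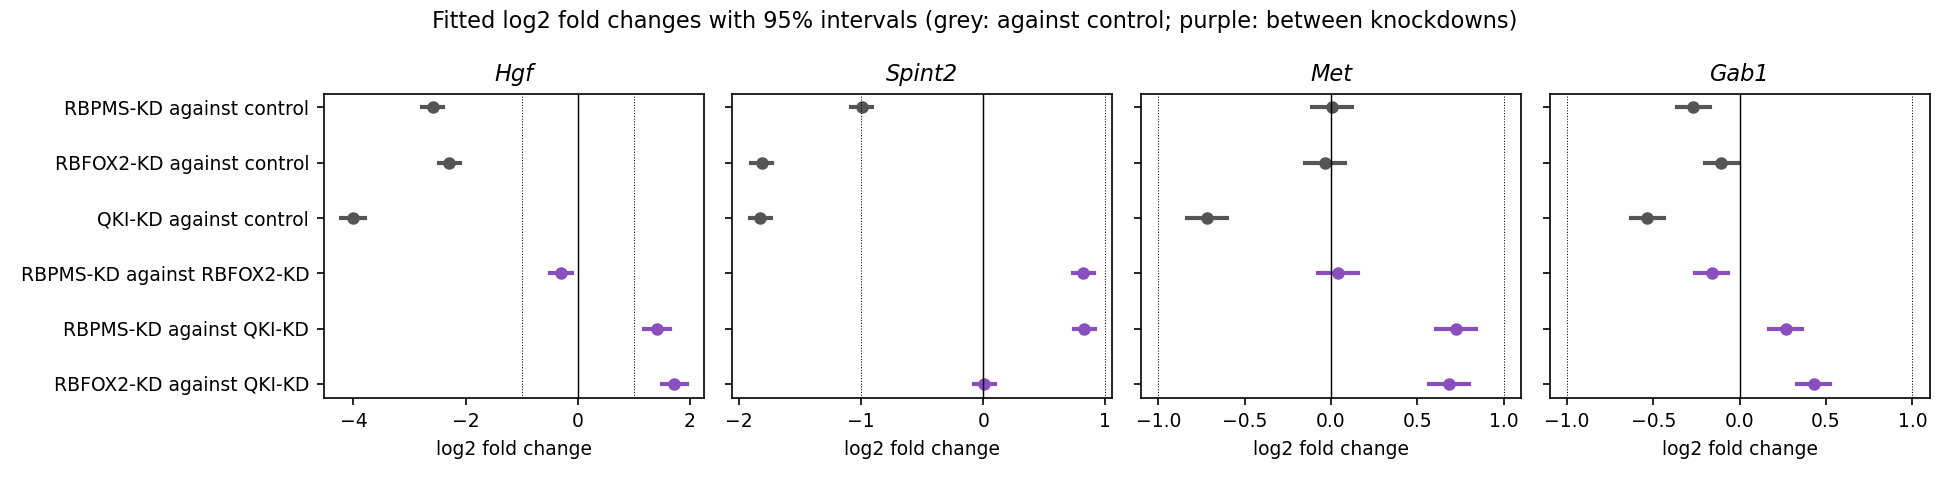
Fitted log2 fold changes of Hgf, Spint2, Met and Gab1 in 6 comparisons, with 95% intervals as lines and dotted lines at −1 and 1. Hgf was chosen for its falls against control, so its values and intervals there are a description with no test. The horizontal axes differ between panels. Spint2 sits near −1.8 in RBFOX2 and QKI knockdown, while the intervals of Met in RBPMS and RBFOX2 knockdown span 0.

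Met, the receptor gene, fell in QKI knockdown. The control libraries held 60.3, 59.9 and 63.5 CPM, and the QKI libraries held 36.3, 38.1 and 37.3 CPM with no overlap. The RBPMS libraries held 67.5, 55.9 and 60.8 CPM and the RBFOX2 libraries 59.3, 57.4 and 62.4 CPM, so both overlapped control.

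The log2 fold change of Met in QKI knockdown was −0.72 (SE 0.055, interval −0.84 to −0.60, edgeR adjusted p 3.17e-09), which is 1.65-fold lower and short of the fold threshold. In RBPMS knockdown it was 0.0034 (SE 0.055, interval −0.11 to 0.12, adjusted p 0.963) and in RBFOX2 knockdown −0.036 (SE 0.054, interval −0.15 to 0.079, adjusted p 0.588), and both signs depended on the scaling. The difference itself was tested, and Met was higher in RBPMS than in QKI knockdown by 0.72 (SE 0.055, adjusted p 4.68e-09) and in RBFOX2 than in QKI knockdown by 0.68 (SE 0.055, adjusted p 6.41e-09). RBPMS and RBFOX2 knockdown differed by 0.040 (SE 0.055, interval −0.075 to 0.16, adjusted p 0.558).

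Gab1, the docking protein gene, changed less than the ligand and the inhibitor. The control libraries held 58.5, 59.0 and 64.6 CPM and the RBPMS libraries 49.8, 49.1 and 52.4 CPM. The RBFOX2 libraries held 55.3, 56.2 and 57.8 CPM and the QKI libraries 40.05, 43.4 and 42.3 CPM. No library of any knockdown reached the lowest control library, and the QKI libraries were the lowest of all.

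Log2 fold changes of Gab1 were −0.27 in RBPMS knockdown (SE 0.045, edgeR adjusted p 6.13e-05) and −0.53 in QKI knockdown (SE 0.045, adjusted p 1.06e-08). In RBFOX2 knockdown the value was −0.11 (SE 0.044, interval −0.20 to −0.011, adjusted p 0.0511), just outside the threshold. There the adjusted p fell under 0.05 in 6 of 9 other settings and in the fits that left out 1 library other than control 3, RBFOX2-KD 1 or RBFOX2-KD 2. Gab1 was also lower in QKI than in RBPMS knockdown by 0.27 (SE 0.045, adjusted p 6.33e-05) and than in RBFOX2 knockdown by 0.43 (SE 0.045, adjusted p 1.79e-07), and lower in RBPMS than in RBFOX2 knockdown (−0.16, SE 0.045, adjusted p 0.00529).

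Spint1, the gene for the related inhibitor HAI-1, was barely detected. The control libraries held 4, 2 and 3 counts and the RBPMS libraries 3, 4 and 4. The RBFOX2 libraries held 12, 8 and 10 counts and the QKI libraries 4, 0 and 2, which makes 56 counts in all. The RBFOX2 libraries were the highest and overlapped no other group. The 0 in QKI-KD 2 allows up to 0.0261 CPM for counting error alone, and 10 of the 12 values are even, a trait of small counts throughout this table.

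Spint1 did not pass the filter on low counts. In the fit without that filter, its log2 fold change in RBFOX2 knockdown against control was 1.64 (SE 0.97, edgeR adjusted p 0.193) and for RBFOX2 against QKI knockdown 2.15 (SE 1.02, adjusted p 0.0775), values that rest on a few counts and are no bound. The epithelial marker Krt8 was higher in RBFOX2 knockdown as well, 72.6 ± 0.975 CPM against 30.6 ± 1.18 CPM in control (log2 fold change 1.25, adjusted p 4.61e-12). Epcam and Cdh1 rose in QKI knockdown (2.62 and 2.23, adjusted p 2.27e-04 and 5.59e-05), to 36 to 55 and 40 to 60 counts per library, and were under 0.4 CPM in the mean of every group. Whether these move together was not tested.

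Counted by call, 2 of the 3 tested genes other than Hgf passed an adjusted p of 0.05 in RBPMS knockdown, 1 of 3 in RBFOX2 knockdown and 3 of 3 in QKI knockdown, all of them lower. Among all genes tested the shares that passed were 59.4%, 60.3% and 66.9%, and the shares that passed and were lower were 29%, 30.1% and 34%. These counts are too small to read against those shares.

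Ratios of counts within a library do not depend on how libraries are scaled. The ratio of Hgf to Met counts was 0.447, 0.456 and 0.456 in control. The RBPMS libraries gave 0.0684, 0.0726 and 0.0857, the RBFOX2 libraries 0.105, 0.103 and 0.0780 and the QKI libraries 0.0468, 0.0489 and 0.0437. The ratio thus stayed below that of control in every knockdown library, and the QKI libraries were lowest although Met itself was reduced there. Hgf was chosen for its falls against control and Met changed far less. The lower ratio therefore follows from that choice and is a description only.

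The ratio of Spint2 to Hgf counts moved the other way. Its mean was 5.41 ± 0.226 in control, 7.59 ± 0.813 in RBFOX2 knockdown, 16.5 ± 2.78 in RBPMS knockdown and 24.6 ± 1.61 in QKI knockdown (SD, n = 3). Inhibitor RNA was therefore lower in all knockdowns while its ratio to ligand RNA was higher, with no overlap between any 2 of the groups. Hgf, by which this ratio divides, was chosen for its falls in these knockdowns. The rise of the ratio is therefore a description with no test. The ratio of Spint2 to Met was 2.45 ± 0.0763 in control and fell to 1.24 ± 0.170, 0.716 ± 0.0493 and 1.14 ± 0.0331 after depletion of RBPMS, RBFOX2 and QKI. Because the genes differ in length, these ratios compare groups and say nothing of which transcript is more numerous.

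**Figure D3:**
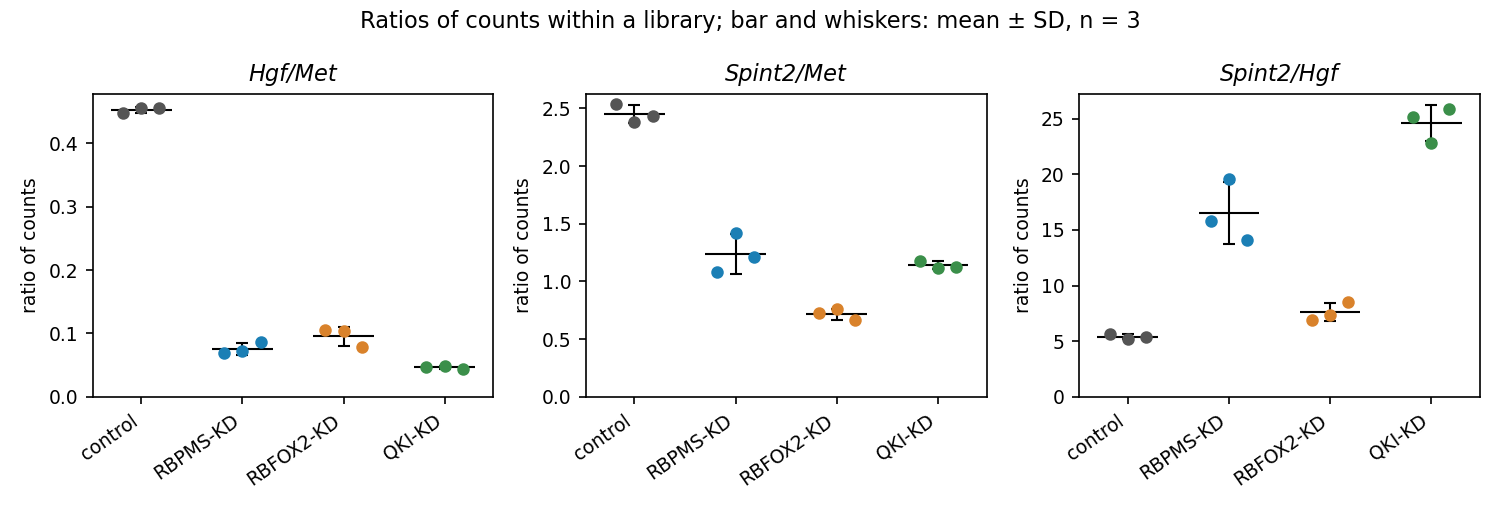
Ratios of raw counts within each library, on linear axes from 0, with 3 points per group and the mean and SD. Spint2/Hgf rises from about 5.41 in control to 24.6 in QKI knockdown, whereas Hgf/Met and Spint2/Met are highest in control.

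A list of 62 further genes of the HGF and MET pathway was grouped by role, and 53 of them were tested. In RBPMS knockdown 12 were higher and 23 lower at an adjusted p of 0.05 (66% of those tested, against 59.4% of all genes). In RBFOX2 knockdown 17 were higher and 24 lower (77.4% against 60.3%), and in QKI knockdown 14 were higher and 24 lower (71.7% against 66.9%). At an adjusted p of 0.05 alone, 30.4%, 30.1% and 32.9% of all genes were higher and 29%, 30.1% and 34% lower. The median log2 fold changes of the list were −0.035, −0.11 and −0.089, beside 0.0085, 0.015 and 0.0070 over all genes. Past both thresholds there were 2 higher and 5 lower, 4 higher and 0 lower, and 4 higher and 7 lower (edgeR), where 5.16%, 6.96% and 8.28% of all genes were higher and 4.5%, 4.73% and 9.24% lower. The list as a whole is described by these counts only.

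**Figure D4:**
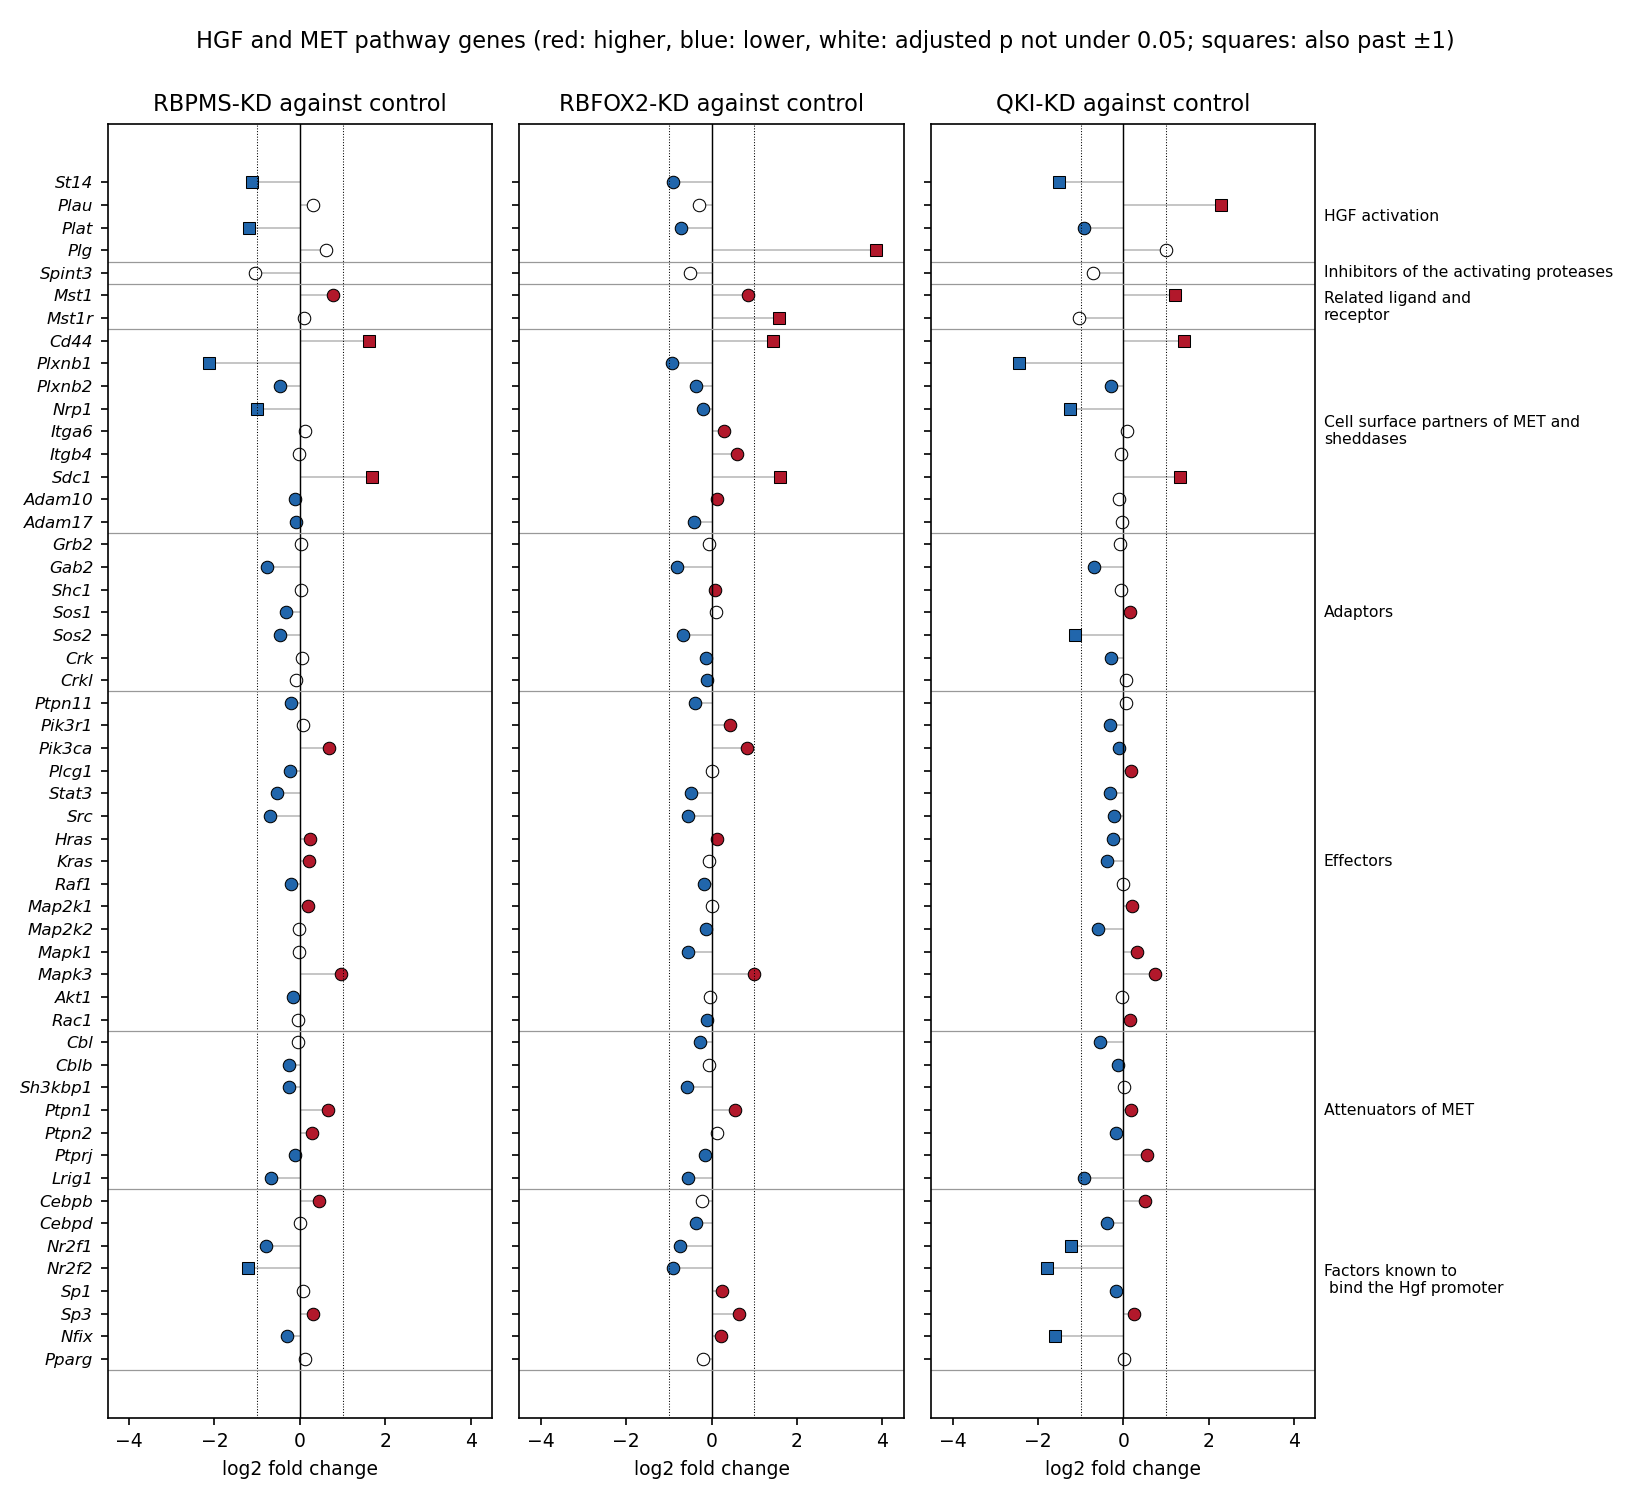
Log2 fold changes against control of the 53 tested pathway genes, in rows grouped by role, with 1 panel per knockdown. Filled markers passed an adjusted p of 0.05, squares also passed a log2 fold change of 1 in either direction, and Cd44 and Sdc1 are squares on the right in all panels.

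Of the 10 genes for proteases that activate HGF or lead to its activation, 4 were tested, since Hgfac, Hpn, Tmprss13, F12, F11 and Klkb1 had at most 13 counts in any library. St14, which encodes the membrane protease matriptase, was at 8.08 ± 0.304 CPM in control and at 3.72 ± 0.489, 4.304 ± 0.121 and 2.83 ± 0.600 CPM after depletion of RBPMS, RBFOX2 and QKI (log2 fold changes −1.11, −0.91 and −1.52, highest adjusted p 1.70e-06). Plat, for tissue plasminogen activator, fell from 332 ± 7.52 CPM with log2 fold changes of −1.20, −0.71 and −0.93 (highest adjusted p 5.23e-11). Matriptase is a protease that HAI-1 and HAI-2 inhibit, so genes for an activator and for its inhibitor were lower in the same knockdowns.

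Other genes of this group were close to the limit of detection. Plau, for urokinase, rose in QKI knockdown to 60 to 124 counts per library from 7 to 28 in control (log2 fold change 2.29, SE 0.37, adjusted p 3.64e-05). Plg, for plasminogen, had 54 to 89 counts in RBFOX2 knockdown and 2 to 7 in control (3.85, SE 0.46, adjusted p 1.15e-06). The inhibitor genes Serpina5, Spint3 and Spint4 had at most 27 counts in any library. Only Spint3 of these was tested, with log2 fold changes of −1.04, −0.50 and −0.70 (edgeR adjusted p 0.0512, 0.306 and 0.151).

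The ligand and receptor most closely related to HGF and MET were also measured. Mst1, for macrophage-stimulating protein, rose in all knockdowns, from 2.04 ± 0.156 CPM with log2 fold changes of 0.78, 0.85 and 1.22 (highest adjusted p 2.30e-06). Its receptor gene Mst1r had 10 to 24 counts in control and 43 to 48 in RBFOX2 knockdown (1.59, SE 0.46, adjusted p 0.00618).

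Of the 9 tested genes for cell surface partners of MET and for proteases that shed it, 4 passed both thresholds in at least 1 knockdown, in both directions, against 26.7% of all genes tested. Cd44, whose product can act as a co-receptor for MET, rose from 230 ± 20.0 CPM in control to 706 ± 14.2, 628 ± 7.90 and 616 ± 21.1 CPM (log2 fold changes 1.62, 1.45 and 1.42, highest adjusted p 1.02e-13). Sdc1, for the heparan sulfate proteoglycan syndecan-1, rose from 96.2 ± 3.63 CPM to 310 ± 12.1, 292 ± 2.30 and 241 ± 2.10 CPM (1.69, 1.60 and 1.33, highest adjusted p 3.40e-15). All knockdown libraries of both genes were above all control libraries.

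Plxnb1, for the semaphorin receptor plexin B1, which can associate with MET, fell from 29.4 ± 3.97 CPM in control with log2 fold changes of −2.14, −0.93 and −2.44 (highest adjusted p 5.43e-07). Nrp1, for neuropilin 1, fell from 109 ± 9.74 CPM with log2 fold changes of −1.01, −0.20 and −1.24 (highest adjusted p 0.00386), and in RBPMS knockdown it no longer passed the fold threshold without control 3 (−0.94) or RBPMS-KD 2 (−0.97).

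Among 7 adaptor genes, Sos2, for a guanine nucleotide exchange factor of RAS, fell in all knockdowns (log2 fold changes −0.47, −0.67 and −1.13, highest adjusted p 4.81e-07), and only its fall in QKI knockdown passed the fold threshold. Gab2, the paralogue of Gab1, was singled out after its values were seen. It fell from 60.9 ± 0.837 CPM in control to 35.8 ± 2.05, 34.6 ± 1.38 and 38.0 ± 0.465 CPM (−0.77, −0.82 and −0.68, highest adjusted p 2.35e-10), a larger fall than that of Gab1 in each knockdown on the fitted values, a difference that was not tested. Reads shared by the paralogues could affect both.

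None of the 15 effector genes passed both thresholds in any knockdown. The most abundant of them, Akt1, changed by −0.16, −0.031 and −0.039 (edgeR adjusted p 1.26e-04, 0.371 and 0.246), and Rac1 by −0.035, −0.11 and 0.16 (adjusted p 0.360, 0.00537 and 2.11e-04), the second of which was lost with library totals only and in the authors' normalised table. Mapk3, for the kinase ERK1, came nearest to the fold threshold and is named after its values were seen. It rose by 0.97, 0.999 and 0.74 (highest adjusted p 6.10e-12), and in RBFOX2 knockdown it passed the threshold under several alternatives, such as 1.05 with library totals only and 1.01 without control 2.

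No attenuator of MET passed both thresholds either. Ptpn1, for a phosphatase that acts on MET, rose by 0.65, 0.55 and 0.18 (highest adjusted p 1.51e-04). Cbl, for the ubiquitin ligase that targets MET for degradation, had log2 fold changes of −0.055, −0.28 and −0.55 in that order (edgeR adjusted p 0.468, 7.58e-04 and 4.93e-07), so that it fell in the RBFOX2 and QKI groups. Lrig1 came nearest to the fold threshold and is named after its values were seen. It fell in all knockdowns (−0.68, −0.55 and −0.92, highest edgeR adjusted p 1.67e-08).

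Of 8 genes for factors known to bind the Hgf promoter, 3 passed both thresholds in at least 1 knockdown, all of them lower, beside 14% of all genes tested that were lower past both in at least 1. Nr2f2, for the orphan nuclear receptor COUP-TFII, fell from 170 ± 17.5 CPM in control to 73.3 ± 3.73, 90.1 ± 3.31 and 49.3 ± 2.51 CPM (log2 fold changes −1.21, −0.91 and −1.78, highest adjusted p 7.88e-10). Nr2f1, for COUP-TFI, fell from 26.5 ± 1.23 CPM with log2 fold changes of −0.78, −0.75 and −1.23 (highest adjusted p 1.36e-09). Nfix, for a nuclear factor I protein, fell in RBPMS and QKI knockdown (−0.30 and −1.59) and rose in RBFOX2 knockdown (0.23), with a highest adjusted p of 0.00396. The others, short of the fold threshold, are named after their values were seen. Sp3 rose in all knockdowns (0.30, 0.64 and 0.25) and Cebpb in RBPMS and QKI knockdown (0.45 and 0.51). Sp1 rose in RBFOX2 knockdown (0.25) and fell in QKI knockdown (−0.16). Cebpd fell in both (−0.36 and −0.38, highest edgeR adjusted p of these 0.0126), and Pparg was never called. The nuclear receptor motif printed in capitals in the Hgf stretch occurs in 14.1% of all such stretches, and no binding was measured. Whether any of these factors bears on the level of Hgf was not tested.

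Across the 12 libraries, which fall into the 4 groups and so are not independent points, the genes whose pattern lay nearest to that of Hgf were sought among 10046 genes averaging at least 5 CPM. The measure was the Euclidean distance between log2 CPM values centred on the mean of each gene. The nearest were Notch3 (distance 1.18), a Notch receptor of smooth muscle, Cp (1.46), for ceruloplasmin, Dact1 (1.47), for a regulator of Wnt signalling, Cmklr1 (1.59), the chemerin receptor, and Ptprd (1.61), a receptor tyrosine phosphatase. Notch3 stood at 75.6 ± 19.5 CPM in control against 14.1 ± 2.70, 26.6 ± 4.27 and 5.82 ± 0.770 CPM (log2 fold changes −2.42, −1.50 and −3.70), each a smaller fitted fall than that of Hgf. By the same measure Spint2 was number 100, Met number 1428 and Gab1 number 1681 in order of distance from Hgf. The list depends on the measure, since none of the 5 genes stayed when ranked by Pearson correlation.

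Met was nearest to Cdk6 (distance 0.162), for a cell cycle kinase, Ankle2 (0.198), for a nuclear envelope protein, and Map4 (0.201), for a microtubule-associated protein. Cdk6 held 196 ± 8.61 CPM in control and 190 ± 13.2, 194 ± 4.27 and 123 ± 3.39 CPM after depletion of RBPMS, RBFOX2 and QKI, with a log2 fold change of −0.67 in the last. The distances are smaller than for Hgf because Met varied less. Ranked by Pearson correlation, 1 of these 3 genes stayed.

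**Figure D5:**
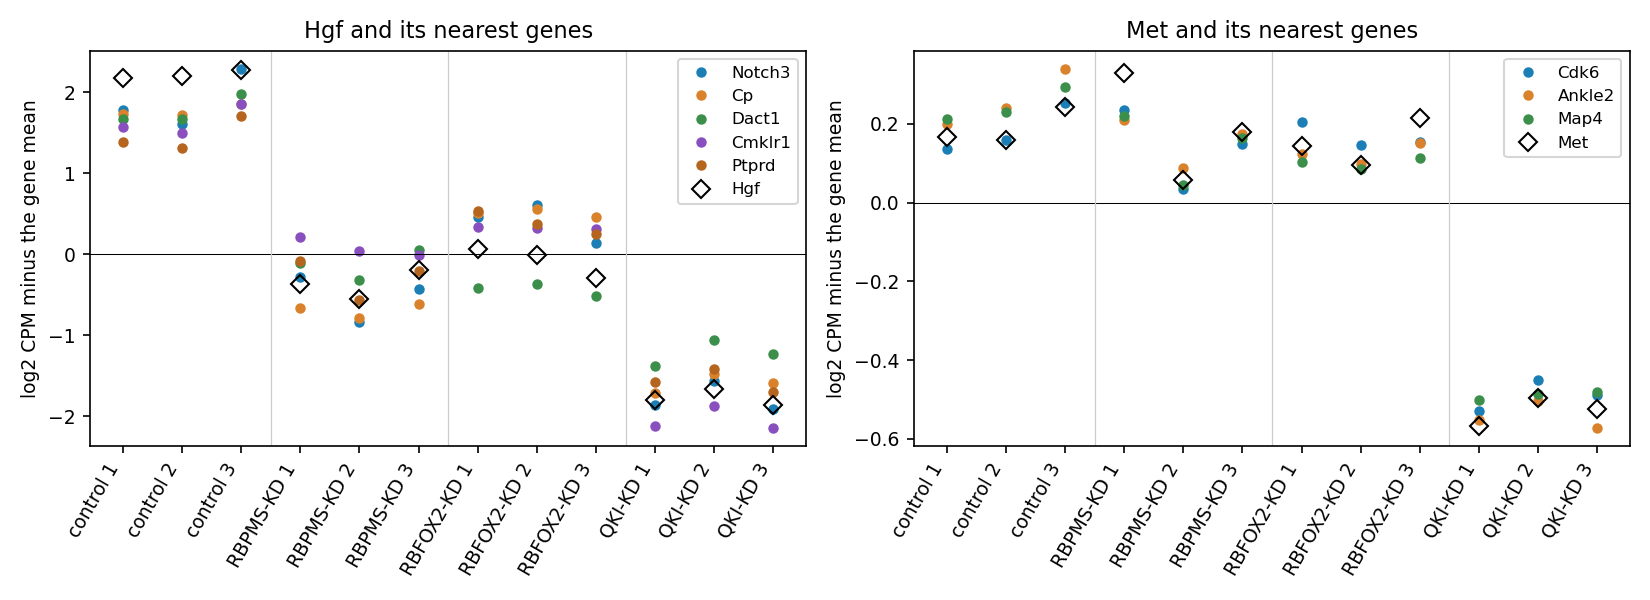
Log2 CPM of each gene minus its mean over the 12 libraries, with 1 column of points per library and grey lines between groups, for Hgf with its 5 nearest genes (left) and Met with its 3 nearest (right). All genes on the left are highest in control and lowest in QKI knockdown, and those on the right are lowest in QKI knockdown.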

How the data were processed

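The deposited table of raw counts per gene, made by the authors with STAR alignment to mRatBN7.2 and featureCounts with a RefSeq annotation, was used as deposited. The labels and the methods name different STAR versions. The methods describe subsampling to the same number of reads in each library, which the unequal library totals of the deposited counts do not show. Whether counting used strand, and how reads shared by several genes were treated, is not given in the sources used here. The authors also deposited a quantile-normalised signal for 22320 genes after a noise filter, used here only as an alternative. Members and lists were chosen with earlier results of these data known. A gene of the pathway list is not reported here and is left out of its counts.

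Differences were fitted to the counts with edgeR 4.0.16 (R 4.3.3, filterByExpr, 18438 genes with 99.99% of counts, TMM, 1 coefficient per group over 12 libraries, two-sided quasi-likelihood test, Benjamini-Hochberg over all genes tested). The SE is the absolute log2 fold change divided by the square root of F. Intervals use 95% of the t distribution. An exact permutation test of 3 against 3 libraries cannot give a p below 0.1. The fits were tried on simulated data with few changed genes and the same spread for every gene. That setting is simpler than these data, so it checks the code only. Named genes were the 5 members, the siRNA targets, list genes past both thresholds in at least 1 knockdown or, in a role with none, its 2 most abundant genes, and those nearest to Hgf and Met. Placeholder symbols were left out of that search. Counts of replicates differed by more than sampling noise (chi-square per degree of freedom 4.64 to 57.8). Of the values from 1 to 19, 68.1% were even, so a fit on halved counts was added. Alternatives also covered RLE scaling, library totals, other filters, DESeq2 1.42.0, limma 3.58.1 on log2(value + 1) of the normalised table, the libraries compared alone, a replicate block and leaving out each library. Promoter sequences come from RefSeq on GRCr8, which holds all 5 members. Transcript sequences were not used here.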

Additional observations from a re-analysis of the deposited data

How the results depend on the processing

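The falls of Spint2 and the differences of Hgf, Met and Gab1 from QKI knockdown kept their direction and stayed under an adjusted p of 0.05 in all 9 other settings and all 12 fits that left out 1 library. With the fold threshold added, Spint2 in RBPMS knockdown, at −0.99, passed in 6 of the 9, with up to −1.04 with library totals. Hgf against control moved beyond the spread of its libraries only with library totals in QKI knockdown (−3.92). In RBPMS against RBFOX2 knockdown, Hgf lost its call in the normalised table (−0.22), and leaving out 1 library gave −0.39 to −0.21. Gab1 in RBFOX2 knockdown passed an adjusted p of 0.05 with RLE size factors (−0.11), no filter (−0.12), DESeq2 (−0.11), the 6 libraries alone (−0.10) and counts halved (−0.11). Leaving out single libraries gave −0.13 to −0.060, and it did not pass without control 3 (adjusted p 0.271), RBFOX2-KD 1 (0.126) or RBFOX2-KD 2 (0.0818). Values near 0 changed sign. For Met in RBPMS knockdown these were −0.0061 with RLE, −0.040 with library totals, −0.014 with no filter, −0.0065 with the filter on a mean of 200 counts, −0.0059 with DESeq2, −0.034 in the normalised table and −0.070 to 0.066 without single libraries. For Met in RBFOX2 knockdown it was 0.018 with library totals. For Met between RBPMS and RBFOX2 knockdown they were −0.058 with library totals, −0.029 in the normalised table and −0.032 to 0.10 without single libraries. For Spint2 between RBFOX2 and QKI knockdown they were −0.0052 with RLE, −0.023 with library totals, −0.0038 with the filter on a mean of 200 counts, −0.0052 with DESeq2, −0.021 in the normalised table, −0.0037 with counts halved and −0.017 to 0.025 without single libraries. Library totals moved the median of all genes from 0.010 to −0.12 between RBPMS and QKI knockdown, and its changes are read relative to that. They also moved the share of higher genes among those changed from 41.3% to 31% between RBPMS and RBFOX2 knockdown and from 53.6% to 41.4% between RBPMS and QKI knockdown. The filter on a mean of 200 counts left 692, 840 and 1484 changed genes of 12237 tested. The number of pathway genes lower past both thresholds in RBFOX2 knockdown was 0 to 1 without single libraries, 1 (Plxnb1, −1.01) without control 2, and 0 in all 9 other settings, DESeq2 included. Ranked by Pearson correlation instead of distance, none of the 5 genes nearest to Hgf and 1 of the 3 nearest to Met stayed. Causes were not tested.

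Replicate numbers did not pair the libraries. Deviations from group means correlated between −0.055 and 0.039 for the 18 same-numbered pairs, and a library correlated best with its own number in 10 of 36 cases. A replicate block brought Gab1 in RBFOX2 knockdown to −0.10 (adjusted p 0.0318) and changed no other call of the members, with 1752, 2110 and 3203 genes changed against control beside 1781, 2156 and 3231. Depth limits Spint1, Plau, Plg and Mst1r, which rest on few counts.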
